A study of Mus musculus with 21 samples.

Results

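Wnt3a, Wnt5a, Wnt5b, Wnt10a, Wnt11 and Wnt16 are 6 of the 19 Wnt ligand genes on an Affymetrix mouse array that was used to profile the presomitic mesoderm (PSM) of the mouse embryo in 7 successive pieces. They are 6 of the 18193 genes that the array names by a single symbol, and each was read from its probe set with the highest mean signal. They were chosen from their profiles over these same arrays, so their levels are described below without a test. All 21 arrays came from CD-1 embryos, an outbred strain, with no genotype or treatment that differed between groups. The stage was labelled E8.5, while the dissection protocol gives 9.0 days post-coitus. Every embryo was exposed to pancreatin at 2 mg/ml for 1 min, after which needles were used to free the PSM from ectoderm, endoderm and lateral plate. Each of the 7 parts had 3 arrays labelled as biological replicates. Some pieces can be the left and right side of a single embryo, which replicates is not said, so the spread between arrays may be smaller than that between embryos.

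The PSM is the paired strip of mesoderm between the tailbud, where new cells enter, and the most recently formed somite, the block of tissue that later gives vertebrae, muscle and dermis. Wnt ligands are secreted, lipid-modified glycoproteins. They bind Frizzled receptors together with co-receptors of the Lrp family to stabilise beta-catenin, which then acts with Tcf and Lef factors on target genes, or they act through Ror2, Ryk and the planar polarity proteins without beta-catenin. In the tailbud, Wnt3a is known for maintaining the progenitors of the PSM, and Wnt5a for the outgrowth of the body axis.

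The promoters of 3 of the ligands are shown because their levels took different courses along the tissue: Wnt3a was above the array's median signal in parts 1 to 3 alone, Wnt16 was highest in part 5, and Wnt11 had the shallowest profile. The Wnt11 signal was never above 40.5, which limits how steep its profile could be. The stretches are written 5′ to 3′ on the gene's own strand and come from RefSeq on GRCm38.p6. Each stops before the first base annotated to the gene, which for Wnt16 and Wnt11 lies upstream of the transcript start of the same promoter window, from which distances are counted. They lie at chr11:59290752-59291001 on the minus strand for Wnt3a, chr6:22287977-22288177 on the plus strand for Wnt16 and chr7:98834862-98835083 on the plus strand for Wnt11. Capitals mark a match to a TCF/LEF motif, searched on both strands as ATCAAAG, as TTCAAAG, as AACAAAG and as TACAAAG.
Wnt3a: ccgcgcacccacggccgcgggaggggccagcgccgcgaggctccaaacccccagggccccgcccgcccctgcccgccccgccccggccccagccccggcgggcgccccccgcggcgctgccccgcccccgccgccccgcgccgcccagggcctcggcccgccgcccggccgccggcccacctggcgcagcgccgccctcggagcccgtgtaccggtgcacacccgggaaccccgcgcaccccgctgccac
Wnt16: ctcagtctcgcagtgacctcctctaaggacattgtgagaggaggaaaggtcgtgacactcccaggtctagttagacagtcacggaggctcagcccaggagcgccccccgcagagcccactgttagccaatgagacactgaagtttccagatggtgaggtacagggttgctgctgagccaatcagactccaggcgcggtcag
Wnt11: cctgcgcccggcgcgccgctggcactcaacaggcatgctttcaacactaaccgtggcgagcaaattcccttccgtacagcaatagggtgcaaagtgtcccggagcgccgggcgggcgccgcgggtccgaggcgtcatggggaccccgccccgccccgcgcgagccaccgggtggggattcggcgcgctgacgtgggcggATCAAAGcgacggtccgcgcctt
The Wnt11 stretch held 1 match, ATCAAAG, which begins 51 bases upstream of that transcript start, and the Wnt3a and Wnt16 windows held none. A further Wnt11 window, at chr7:98838595-98838894, held none either. Of 3 Wnt5b windows, 1 held a match, CTTTGAT, 71 bases upstream of its start. That window also held ACACCT, the reverse complement of the T-box core AGGTGT, 44 bases upstream. Over 32851 RefSeq promoter windows of 300 bases, 16.9% held a TCF/LEF match and 13.7% the T-box core, so a match of either kind is common.

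The values are MAS5 signals on a linear scale, and the mean signal per array ran from 151 to 154. The median of all values in the table, 13.3, serves here as the line below which a signal is read as low. Genes were tested only where they reached it in at least 3 arrays, which 12143 genes did, all 6 ligands among them. The labels number the parts and describe the series as running from tailbud to somite, without tying either end to a number. Cyp26a1, which degrades retinoic acid in the tailbud, had its highest mean signal in part 1 and 5.26% of it in part 2. Tbx6, a PSM transcription factor, was highest in part 2, and Meox1, a somite transcription factor, was highest in part 6 and at 0.835% of that level in part 1. All 9 listed tailbud and posterior PSM markers fell with part number and all 9 listed somite and anterior PSM markers rose. The lists were drawn up with earlier results of these arrays known, so these counts are not independent evidence. From the known places of these genes, part 1 is called the tailbud end and part 7 the somite end below.

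In every array of part 1, 5 of the 6 ligands had more signal than in any array of part 7, and the remaining ligand, Wnt16, had less. These counts restate the choice of genes. Of all tested genes, 14.7% had all 3 arrays of part 7 below all 3 of part 1 and 14.4% had all 3 above. Because the pieces are bulk tissue, fewer cells that make a transcript cannot be told apart from less of it per cell.

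Wnt3a, the ligand known for PSM progenitor maintenance, gave signals of 164, 270 and 173 in part 1 (replicates 1, 2 and 3), then 54.2, 98.8 and 42.8 in part 2 and 28.2, 23.0 and 18.6 in part 3. All 3 arrays of part 2 lay below those of part 1, and all 3 of part 3 below those of part 2. From part 4 on every value was under the median of all values: 2.56, 11.6 and 5.94 in part 4, 4.34, 12.5 and 9.85 in part 5, 0.489, 8.14 and 12.3 in part 6, and 6.00, 11.0 and 9.19 in part 7. Parts 4 to 7 overlapped throughout and have no order. On the log2(signal + 16) scale, on which a signal of 0 is 4, Wnt3a went from 7.74 ± 0.37 (SD, n = 3) in part 1 to 6.28 ± 0.50 in part 2, 5.29 ± 0.18 in part 3 and 4.49 ± 0.29 in part 4. The steps were -1.45, -1.0 and -0.80. Part 7 differed from part 1 by -3.11 on that scale. All 3 arrays of part 7 were low, so this is a difference from a low signal and not a measured fold, and the scale understates changes of low genes.

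Wnt5a, which acts largely without beta-catenin and is needed for axis outgrowth, kept a high signal much further along. On its probe set with the highest mean signal, the signals were 1405, 1637 and 1228 in part 1, 784, 1018 and 966 in part 2, and 634, 687 and 558 in part 3. Parts 2 and 3 each lay wholly below the part before. Parts 4 and 5 gave 691, 637 and 416, and 528, 832 and 349, and both overlapped part 3. The profile of this probe set was thus level within its spread over parts 3 to 5. Part 6 gave 175, 246 and 159, all below part 5, and part 7 gave 95.6, 251 and 108, which overlapped part 6. The largest step, -1.42 on the log2 scale, was therefore between parts 5 and 6. The mean went from 10.48 ± 0.21 (SD, n = 3) in part 1 to 9.32 ± 0.15 in part 3, 9.11 ± 0.61 in part 5 and 7.27 ± 0.69 in part 7, a difference of -3.21 between the ends, and all 21 arrays were above the median of all values.

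Wnt5b, the close relative of Wnt5a, had signals of 312, 1039 and 524 in part 1 and 271, 306 and 142 in part 2, with no overlap. The 3 arrays of part 1 differed among themselves by more than those of any other part of this gene, with a log2 SD of 0.84. Part 3 gave 181, 228 and 83.4, part 4 gave 111, 147 and 70.6, and part 5 gave 56.0, 113 and 43.6. Part 6 gave 62.8, 49.7 and 35.8, and part 7 gave 129, 50.5 and 75.9. From part 2 on, each part overlapped the next. The mean was 9.16 ± 0.84 (SD, n = 3) in part 1, lowest in part 6 at 6.01 ± 0.30 and 6.59 ± 0.56 in part 7, and the difference of 0.57 between parts 6 and 7 lay within their overlap. Part 7 minus part 1 was -2.57.

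Wnt10a, known chiefly from skin appendages and teeth, was low in most of the tissue. Signals of 32.2, 24.6 and 68.0 in part 1 were followed by 11.0, 26.2 and 14.1 in part 2, so these parts overlapped. Over parts 3 to 7 the signals lay between 1.66 and 16.3, and 3 of those 15 arrays reached the median of all values. The log2 mean was 5.78 ± 0.55 (SD, n = 3) in part 1 and 4.58 ± 0.44 in part 7, a difference of -1.19. Every part overlapped its neighbour in the order of levels. Replicate 3 held the highest value, and without it the difference was -0.66.

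Wnt11, which is known for guiding cell movements in gastrulation and heart formation, had the smallest difference between the ends. Its signals were 24.7, 40.5 and 26.8 in part 1, 22.9, 22.3 and 10.7 in part 2 and 19.3, 25.2 and 16.6 in part 3. Parts 4 to 7 ranged from 7.05 to 19.4, so that part 1 was the only one clear of every value there. The log2 mean was 5.53 ± 0.25 (SD, n = 3) in part 1 and 4.85 ± 0.06 in part 7, a difference of -0.68. No array exceeded 40.5, and the scale understates changes at such signals. Ordered by level, the parts ran 1, 3, 2, 6, 4, 7 and 5, and each overlapped the next.

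Wnt16, known from zebrafish somites for its role in specifying blood stem cells, had the opposite course. Its signals were 4.07, 1.57 and 6.43 in part 1, 7.74, 5.37 and 1.10 in part 2 and 5.46, 8.12 and 0.733 in part 3, all below the median of all values and overlapping. Part 4 gave 27.8, 14.7 and 7.82, and 2 of its 3 arrays were above that line. Part 5 gave 81.1, 94.3 and 46.6, higher than every array of part 4. Parts 6 and 7 gave 44.5, 66.3 and 43.8, and 37.2, 61.7 and 34.2, with overlap between neighbours from part 5 on. The log2 mean went from 4.32 ± 0.18 (SD, n = 3) in part 1 through 4.99 ± 0.44 in part 4 to 6.45 ± 0.43 in part 5, a step of 1.46, and was 5.89 ± 0.34 in part 7. Part 7 exceeded part 1 by 1.57, and part 5 was the highest in each of the 3 replicates.

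**Figure D1:**
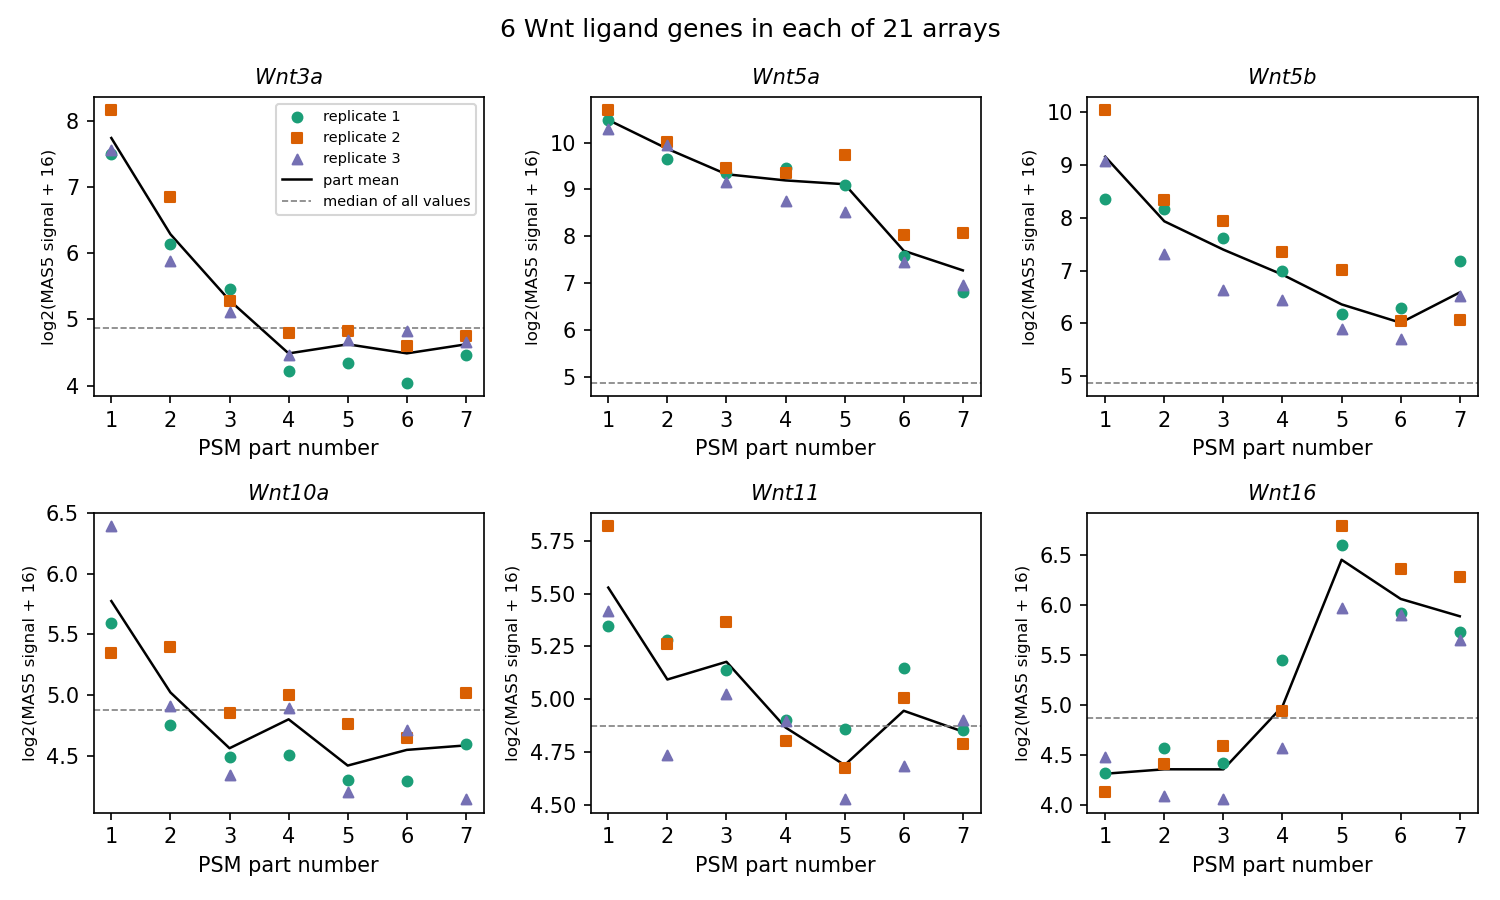
Signal of the 6 ligands in 21 arrays, as log2(MAS5 signal + 16), against the PSM part number from 1 to 7; symbols are replicates 1 to 3, the line joins part means (n = 3) and the dashed line is the median of all values, 13.3. Wnt3a lies below that line from part 4 on, Wnt5a stays above it throughout, and Wnt16 crosses it at part 4 and is highest in part 5.

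Replicates agreed on the sign of every profile. A straight line through the 7 parts had a slope per part of -0.51, -0.54 and -0.40 for Wnt3a in replicates 1, 2 and 3, and of -0.55, -0.41 and -0.56 for Wnt5a. For Wnt5b the slopes were -0.31, -0.62 and -0.42, and for Wnt16 they were 0.32, 0.45 and 0.32. Part 1 was highest in all 3 replicates for Wnt3a, Wnt5a, Wnt5b and Wnt11. For Wnt10a it was highest in replicates 1 and 3, whereas replicate 2 was highest in part 2, at 26.2 against 24.6.

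Set against each gene's own highest part, the profiles separated. In part 3 the mean signal was 11.5% of the part 1 level for Wnt3a, 26.3% for Wnt5b, 44.0% for Wnt5a and 66.4% for Wnt11, while all 3 arrays of Wnt10a were under the median of all values. The part 1 mean of Wnt11 was only 30.7 against that median of 13.3. Its percentage is therefore limited by background and cannot be compared with those of the stronger ligands. In part 5 all 3 Wnt3a arrays were under that line and Wnt5a was still at 40.0%. Wnt5a reached 13.6% only in part 6, where Tbx6 was at 7.29% of its highest part. Wnt16 was under that line in every array of parts 1 to 3, at 22.7% in part 4 and at 100% in part 5, while Meox1 was already at 12.9% in part 3 and 57.7% in part 4. Cer1, a secreted antagonist, was at 2.5% in part 4 and 55.9% in part 5.

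**Figure D2:**
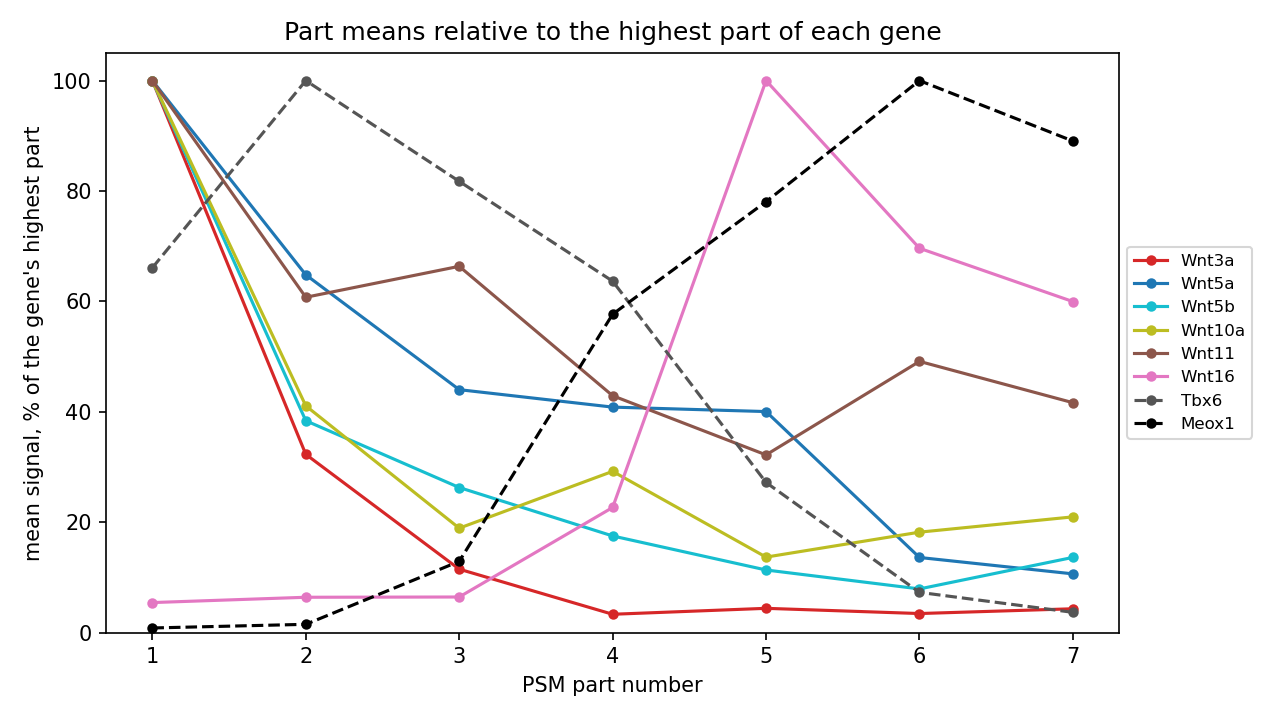
Mean MAS5 signal of each part (n = 3 arrays) as a percentage of that gene's highest part, against PSM part number, for the 6 ligands and the position genes Tbx6 and Meox1. Wnt3a is at 11.5% and Wnt5a at 44.0% of part 1 in part 3, and Wnt16 is at 22.7% in part 4 and 100% in part 5, whereas its points in parts 1 to 3 and those of Wnt3a in parts 4 to 7 come from arrays all under the median of all values. The highest part means of Wnt11 and Wnt10a are only 30.7 and 41.6, so their percentages are limited by background.

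Wnt5a and Wnt5b were the members with more than 1 probe set, and all of their probe sets had the highest mean in part 1. The 3 other Wnt5a probe sets differed between part 7 and part 1 by -2.11, -3.16 and -1.46 on the log2 scale, against -3.21 for the one used. Over the 21 arrays they had a Pearson r with it of 0.959, 0.964 and 0.75. The size of the Wnt5a difference thus varied among probe sets while its direction did not. The course of Wnt5a between the ends varied too, and its steps and percentages above are those of the probe set used. The one with r = 0.959 had means of 8.53, 8.48, 7.98, 7.46 and 7.53 in parts 1 to 5. It was thus level over parts 1 and 2, and its mean was lower in part 4 than in part 3. From part 1 to part 2, those with r = 0.964 and 0.75 went from 7.89 to 7.23 and from 6.38 to 6.04. The other Wnt5b probe set differed by -2.37 (r = 0.933), against -2.57 for the one used, which is of a type (_x_at) whose probes can also match other transcripts. Wnt3a, Wnt10a, Wnt11 and Wnt16 each rest on a single probe set.

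**Figure D3:**
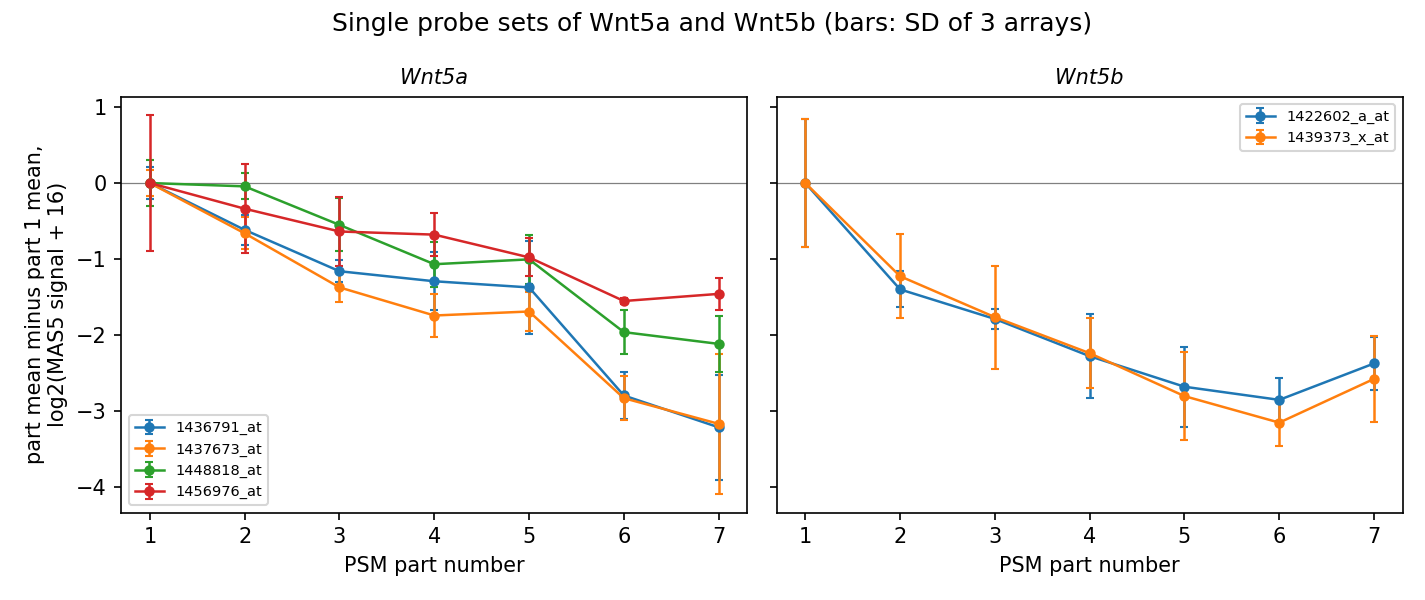
Part means of every Wnt5a and Wnt5b probe set minus that probe set's part 1 mean, in log2(MAS5 signal + 16), against PSM part number; bars are the SD of 3 arrays. All 4 Wnt5a and both Wnt5b probe sets lie below 0 in part 7, from -1.46 to -3.21 for Wnt5a and at -2.37 and -2.57 for Wnt5b.

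The members also varied together over the 21 arrays, which share their parts and replicate numbers, so the correlations below are descriptions. Wnt3a and Wnt5b had a Pearson r of 0.883 and Wnt5b and Wnt11 one of 0.836, while Wnt5a and Wnt11 had the lowest among the 5 ligands of the tailbud end, at 0.532. Wnt16 correlated negatively with the other 5, from -0.682 with Wnt5b to -0.458 with Wnt10a. Among all tested genes of another symbol, the profiles most like Wnt3a were those of Evx1os (r = 0.962), Fgf4 (0.961) and Uap1l1 (0.956). Those most like Wnt5a were Fabp7 (0.948), Hoxa11os (0.926) and Hoxd10 (0.922), and those most like Wnt5b were Igfbp2 (0.962), Qdpr (0.939) and Zscan10 (0.936). Wnt10a was most like 6330509M05Rik (0.851), Smim3 (0.846) and Oat (0.840), and Wnt11 most like Higd2a (0.866), Dgka (0.860) and again Qdpr (0.851). Wnt16 was most like Bnc2 (0.925), Cer1 (0.921) and Myocd (0.918).

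Fabp7 is also a gene of the neural tube, the tissue beside the PSM, and 10 neural tube markers were read for that reason. Of the 7 tested by the slope, Fabp7 fell, Olig2 rose and 5 did not pass. Among all tested genes 8.09% rose and 11.1% fell, the share to set beside each marker count here. The summed signal of the list was 805 to 1261 in part 1 and 159 to 285 in part 7, but without Fabp7 it was 68.6 to 137 and 119 to 130. Over the 21 arrays Sox1 lay between 0.157 and 13.9 (median 0.747) and Neurog2 between 0.436 and 6.82 (median 0.902), while Sox2 reached 70.4 (median 10.6) and Irx3 236 (median 51.1). Irx3 had a slope of 0.22 that did not pass (limma adjusted p = 0.0679). Of 7 tested blood markers Hba-x, Hbb-bh1, Klf1, Alas2 and Epor fell, and all but Epor lost the call without replicate 1 or 3, with sums of 10795 to 18325 in part 1 and 6575 to 12370 in part 7. Of 8 tested gut endoderm markers Krt8 fell, with sums of 257 to 444 and 95.8 to 289. Krt19 did not pass by slope (limma adjusted p = 0.0501) but was lower in part 7 than in part 1 (0.0176). Cldn6 did not pass by slope (0.108) but passed the F test (limma adjusted p = 0.0405). Of 6 surface ectoderm markers Grhl3 fell, with sums of 70.5 to 144 and 54.0 to 93.4. Of 6 markers of lateral and intermediate mesoderm Wt1 rose and Bmp4 fell, and of 9 endothelial markers and 1 notochord marker none passed by slope. The lateral and intermediate mesoderm sums were 119 to 189 in part 1, 280 to 414 in part 3 and 107 to 210 in part 7, and Osr1 passed the F test (limma adjusted p = 0.00803). The endothelial sums spread from 30.1 to 1225 within part 2 and were 532 to 865 in part 3, 43.6 to 227 in part 6 and 72.9 to 341 in part 7. The calls of Olig2 (without replicate 1 or 2), Grhl3 (without 2), Bmp4 (without 1 or 3) and Wt1 (without 3) were lost when a replicate was left out. The part of blood or of neighbouring tissue in the ligand profiles was not tested.

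The other 13 Wnt ligands are those left when the 6 were chosen by profile, so a lack of slope among them was partly fixed by that choice and is given as a description. Wnt1, Wnt2, Wnt2b, Wnt3, Wnt4, Wnt9b and Wnt10b did not reach the median of all values in 3 arrays, and the highest signal of any of these 7 was 14.6, for Wnt2b. Of Wnt6, Wnt7a, Wnt7b, Wnt8a, Wnt8b and Wnt9a, none passed the slope test of limma at an adjusted p of 0.05, and 2 had an unadjusted p below 0.05. These were Wnt6, at -0.06 ± 0.02 log2 per part (SE, adjusted p = 0.116), and Wnt8a, at -0.06 ± 0.02 (adjusted p = 0.0836). Among all tested genes 8.09% rose and 11.1% fell with part number. Over the parts in any order, 13.4% of genes passed limma's F test, and of these 6 ligands Wnt9a did (adjusted p = 0.0113). Its signals were 20.1, 28.3 and 25.7 in part 1, 1.70, 2.29 and 2.84 in part 4 and 29.6, 6.96 and 23.9 in part 7. Wnt9a was thus higher at the tailbud end than in part 4, with a wide spread at the somite end. The call was lost when replicate 1 (adjusted p = 0.118) or replicate 3 (0.149) was left out or when its probe sets were averaged (0.123), against a range of 0.00609 to 0.0393 in the other settings. Its second probe set was under the median of all values in all 21 arrays (mean signal 2.22), so the averaged value does not bear on the call.

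**Figure D4:**
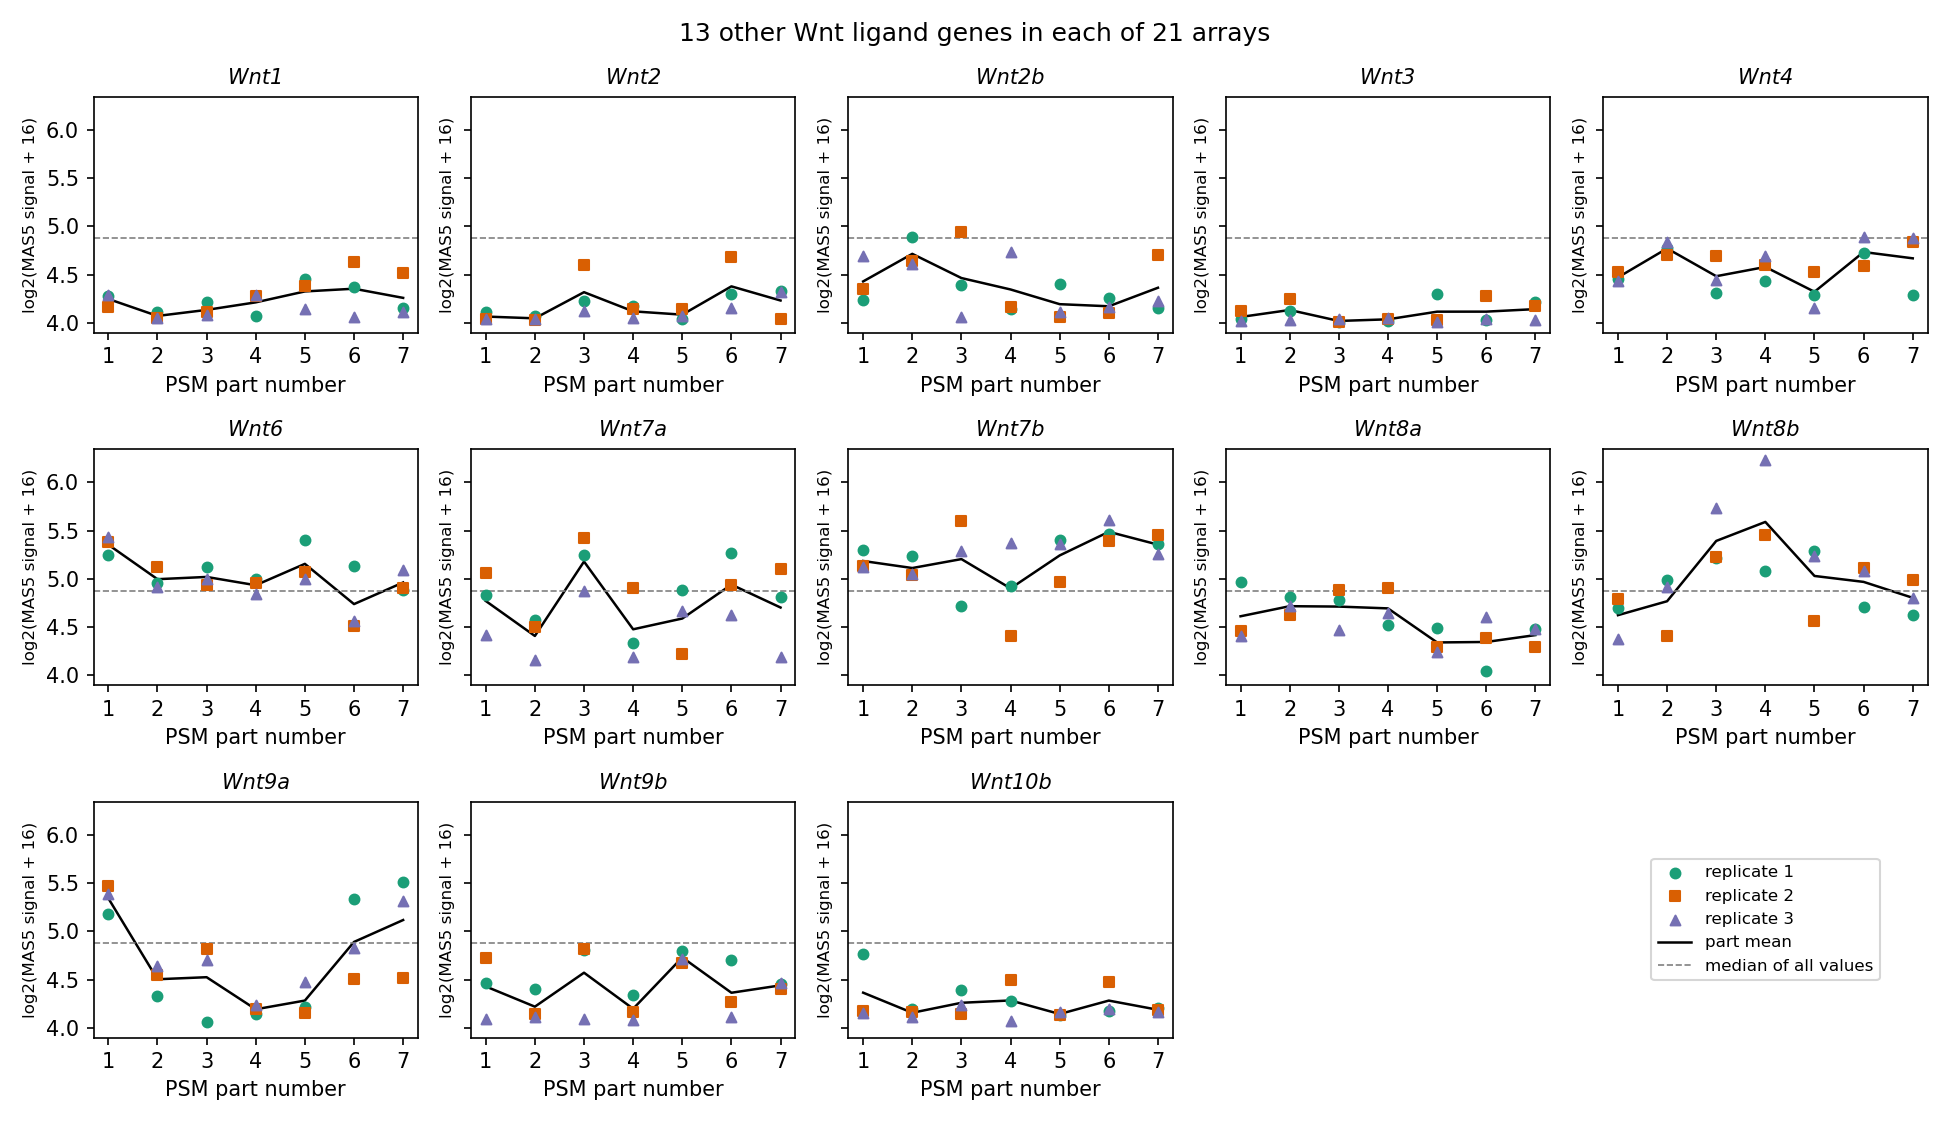
Signal of the 13 other Wnt ligands, of which 6 were tested, as log2(MAS5 signal + 16), against PSM part number. Symbols are replicates 1 to 3, the line joins part means (n = 3) and the dashed line is the median of all values, 13.3. Most values of the tested ligands lie near the dashed line, and those of the untested ligands lie mostly below it. The part means of Wnt9a go from 5.34 in part 1 to 4.19 in part 4 and 5.12 in part 7.

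The rest of the pathway was read from 7 lists with 115 genes, of which 111 had a probe set with a single gene symbol and 97 were tested. With part number 13 rose, 25 fell and 59 did not pass, against 8.09% rising and 11.1% falling among all tested genes, and 42 passed the F test. In part 7 against part 1, 13 were higher and 24 lower, against 6.1% and 7.3% of all tested genes. The lists were drawn up with earlier results of these arrays known, so none of these totals is independent evidence. Of the genes that fell, 9 came from the list of beta-catenin targets, which holds several genes that also mark the tailbud. In the cells' handling of the ligands, 5 of 10 tested genes fell and none rose. Wls, the carrier that brings Wnt proteins to the cell surface, went from 9.18 ± 0.20 (SD, n = 3) in part 1 to 7.08 ± 0.05 in part 7, a slope of -0.34 ± 0.05 per part (SE, limma adjusted p = 1.99e-05). Gpc4 and Gpc3, glypicans that bind Wnt at the surface, had slopes of -0.17 ± 0.03 and -0.12 ± 0.02. Notum, which inactivates Wnt by removing its lipid, fell by 0.14 per part (limma adjusted p = 0.00278) but did not pass the F test (0.137). Its signal was low, with a mean of 5.40 in part 1 and 4.47 in part 7 on a scale where a signal of 0 is 4. Tmed5, a cargo receptor of the secretory pathway, fell by 0.09 (adjusted p = 0.0275), a call that was lost without replicate 1 (0.488). Porcn, the enzyme that adds the lipid, had a slope of -0.04 ± 0.03 (adjusted p = 0.336).

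Of 9 tested Frizzled receptors, 3 rose and 2 fell. Fzd2 went from 7.12 ± 0.50 (SD, n = 3) in part 1 to 9.55 in part 3 and 9.98 ± 0.18 in part 7, with a slope of 0.38 ± 0.06 (limma adjusted p = 4.32e-05). Most of that difference lay between parts 1 and 3, where the steps of Wnt3a were largest. The largest Wnt5b step, -1.22, was between parts 1 and 2. Fzd8 rose by 0.36 ± 0.04 per part (adjusted p = 4.9e-07) and Fzd4 by 0.16 ± 0.04 (0.00222). Fzd10 and Fzd1 fell, at -0.15 ± 0.03 (0.00236) and -0.14 ± 0.03 (0.00541), and both calls were lost without replicate 1 (0.0796 and 0.0907), that of Fzd1 also without replicate 2 (0.11). Of 11 tested co-receptors and regulators of receptor turnover, Ptk7, a planar polarity co-receptor, fell by 0.28 per part (2.55e-05) and Znrf3, which removes Frizzled from the surface, by 0.05 (0.0331). Tspan12 rose by 0.11 (0.0399), and 8 did not pass, where 8.09% of all tested genes rose and 11.1% fell. Without replicate 1, 2 or 3 that list had 1, 1 or 2 calls, and Znrf3 and Tspan12 were called in none of the 3. Ror2, the Wnt5a receptor, had no slope that passed (-0.05 ± 0.03, adjusted p = 0.30) but passed the F test (0.00245), with means of 7.71 in part 1, 8.39 in part 4 and 7.72 in part 7. That call was lost without replicate 1 (0.0857) or 2 (0.148).

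Secreted modulators had calls in both directions, with 3 of 14 tested rising, 5 falling and 6 not passing, and 11 passing the F test. Among all tested genes 8.09% rose, 11.1% fell and 13.4% passed the F test. Rspo3, an agonist that keeps Frizzled on the surface, went from 11.49 ± 0.17 (SD, n = 3) in part 1 to 7.53 ± 0.18 in part 7, a slope of -0.77 ± 0.05 (limma adjusted p = 1.31e-10). Dkk1, an Lrp antagonist, went from 8.51 ± 1.22 to 4.32 ± 0.33, at -0.73 ± 0.09 (2.71e-06), and Frzb, Dkk2 and Apcdd1 fell as well. Cer1 rose by 0.96 ± 0.12 per part (1.45e-06), and Wif1 and Sfrp4, which bind Wnt proteins, by 0.27 and 0.25. Agonist and antagonist genes were thus both among those that fell.

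Among 19 tested genes of beta-catenin signal transduction 3 rose and none fell, against 8.09% rising and 11.1% falling among all tested genes. The 3 were Tle1, a Tcf co-repressor, at 0.32 ± 0.04 per part (limma adjusted p = 6.08e-06), Tcf7l2 at 0.20 ± 0.03 (2.55e-05) and Axin1, a scaffold of the beta-catenin destruction complex, at 0.06 ± 0.02 (0.0427). The Axin1 call was lost without replicate 1 (0.438) or 3 (0.154) and with the mean of its probe sets (0.186). Of 16 tested genes listed as beta-catenin targets 9 fell, none rose and the median slope was -0.27, against -0.00125 over all genes. That list holds several genes that also mark the tailbud and was drawn up with earlier results of these arrays known, so it is not independent evidence of its direction. The steepest were Cdx4 (-0.81 ± 0.06), Tbx6 (-0.69 ± 0.08), Cdx2 (-0.67 ± 0.08) and Nkd2 (-0.54 ± 0.09), and Sp5 followed at -0.39 ± 0.06 (adjusted p = 2.95e-05). Axin2, a feedback inhibitor and common readout of beta-catenin signalling, had a slope of -0.07 ± 0.04 that did not pass (adjusted p = 0.256), with 8.47 ± 0.57 in part 1 and 7.87 ± 0.62 in part 7. Lef1 did not pass the slope test either (0.11), but passed the F test (0.007), with 9.46 in part 5 and 7.66 ± 0.80 in part 7, a call that was lost without replicate 1 (0.182) or 3 (0.0843).

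Of 18 tested planar polarity and other beta-catenin-independent genes, 3 rose, 2 fell and 13 did not pass. Among all tested genes 8.09% rose and 11.1% fell, so the falling count is no larger a share than that. Prickle2 fell by 0.28 per part (limma adjusted p = 2.81e-06) and Celsr1 by 0.25 (0.00336), both known as core planar polarity genes. Dact2 rose by 0.20 (0.0247), Daam2 by 0.14 (0.00789) and Prickle1 by 0.12 (0.0481). Vangl2, another core component, had a slope of -0.09 ± 0.05 (0.178). Leaving out a replicate left 1 to 3 calls in this list. Prickle2 kept its call each time (adjusted p from 0.000113 to 0.000656) and Prickle1 lost it each time, while Celsr1 lost it without replicate 1 (0.0545), Daam2 without 1 or 2 and Dact2 without 1 or 3.

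**Figure D5:**
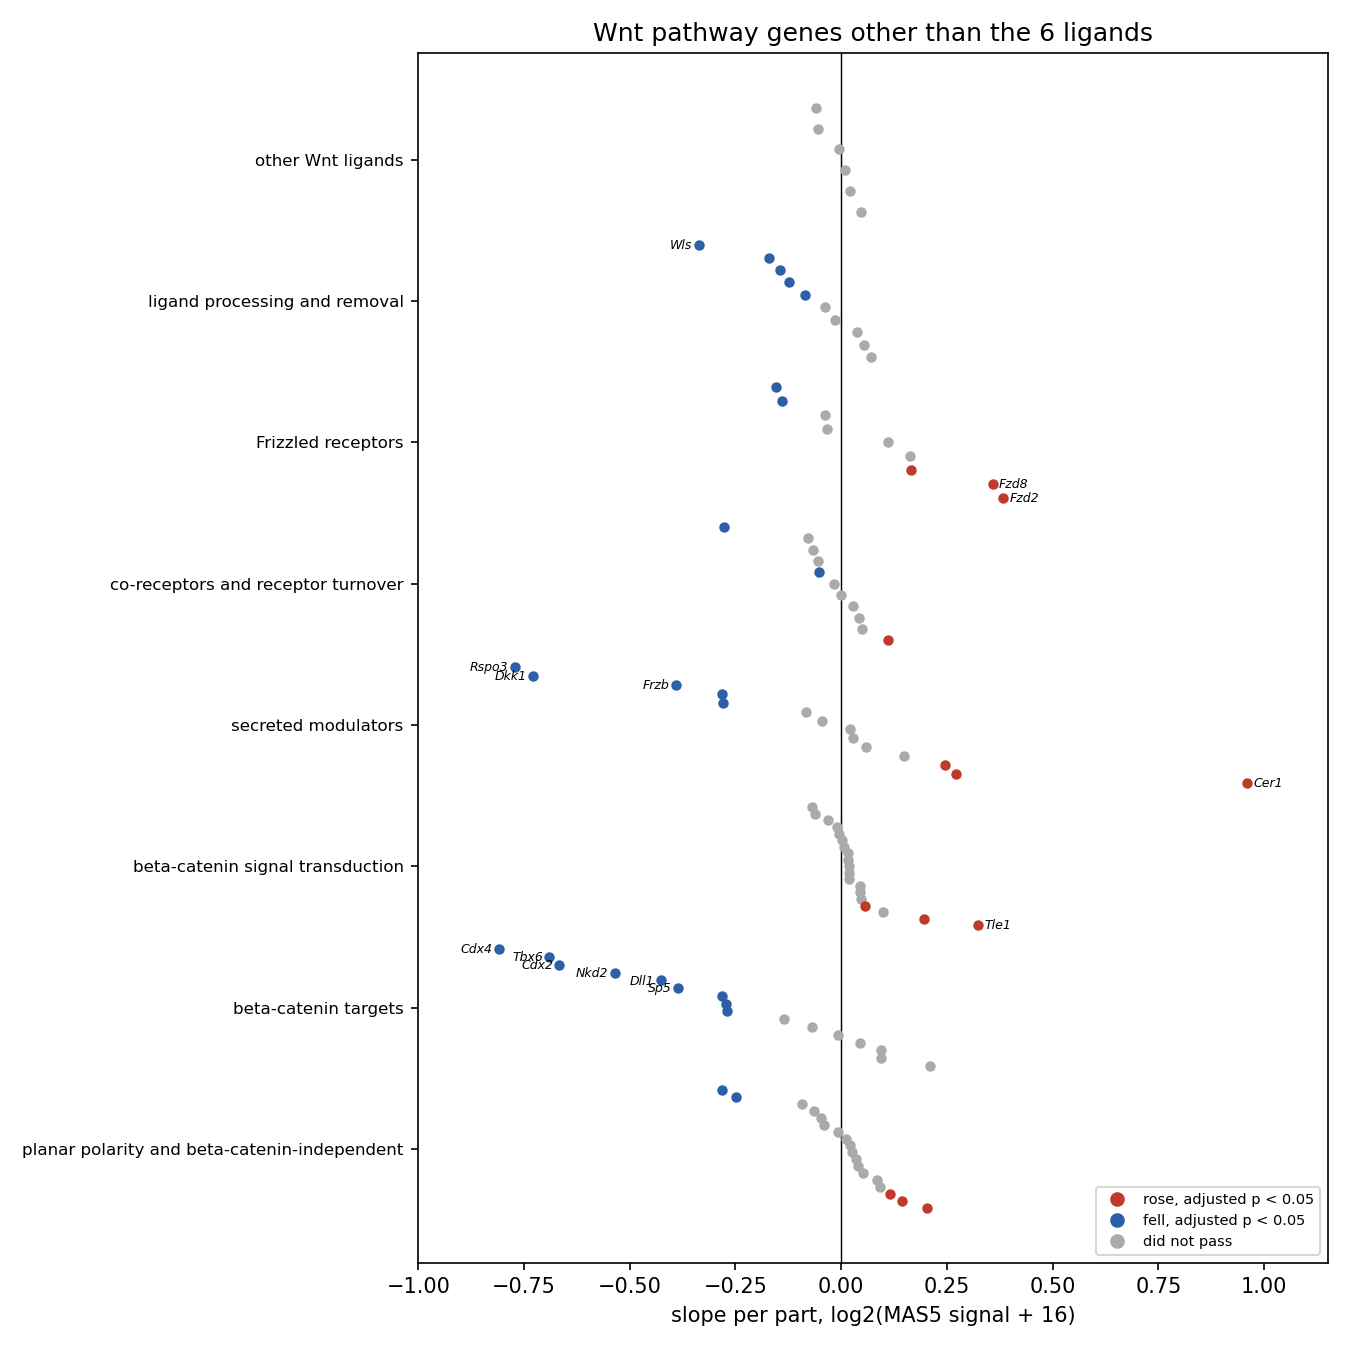
Slope per part of log2(MAS5 signal + 16), from limma over 21 arrays, for the 97 tested pathway genes and the 6 other tested Wnt ligands, grouped by list. Red points rose and blue points fell at an adjusted p of 0.05, and grey points did not pass. Cer1 lies farthest to the right at 0.96, and Cdx4 (-0.81) and Rspo3 (-0.77) farthest to the left. Grey points are 59 of the 97 pathway genes and all 6 of the other Wnt ligands.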

How the data were processed

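RNA from 7 PSM parts (3 arrays each) was amplified in 2 rounds and hybridised. The authors deposited linear signal intensity for each probe set, computed with MAS5 according to the submitters' processing notes; its version is not given in the sources used here. Because MAS5 scales arrays to like means, a shift common to most genes is hidden, and low signals are noisy.

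Of 45101 probe sets, 34945 carried 1 gene symbol and were used, whereas 932 with several symbols and 9160 without one were not. Each gene was read from its probe set of highest mean, and values were used as log2(value + 16). Genes whose probe set reached 13.3, the median of all values, in at least 3 arrays were tested with limma 3.58.1 in R 4.3.3 (mean-variance trend, no covariate, Benjamini-Hochberg adjustment over all 12143 tested genes, threshold 0.05). The tests were a straight line on the part number, a moderated F test over the parts and part 7 against part 1, and p-values measure the spread between these arrays, whose number limits the precision. The code was tested on simulated data. Among the 38 called pathway genes, the 21 further probe sets with a mean at or above 13.3 had no slope of opposite sign.

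The members and gene lists were chosen with earlier results of these data known. Genes named are the Wnt ligands, the 4 steepest called genes of each list, fixed pathway and position genes, the 3 most like each member, and genes behind counts of 5 or fewer. Alternatives were the pseudocount (1 or 64), the filter, quantile or median scaling, the mean of all probe sets, no trend, the replicate number as a block, and each replicate left out. Kremen2, Tcf7, Prickle3 and Rock2 were not analysed here.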

Additional observations from a re-analysis of the deposited data

How the results depend on the processing

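The highest part of each of the 6 ligands was the same in every alternative run (part 5 for Wnt16 and part 1 for the others), and no difference between part 7 and part 1 changed sign. Its size depended on the pseudocount, since low signals are compressed by it: with 1 it was -4.38 for Wnt3a, -2.37 for Wnt10a, -1.17 for Wnt11 and 3.26 for Wnt16, and with 64 it was -1.85, -0.52, -0.30 and 0.66. For Wnt5a it was -2.49 with the mean of all probe sets, and -2.11 and -1.46 with 2 of the single ones. Leaving out a replicate gave -1.62 to -0.66 for Wnt10a and 1.28 to 1.78 for Wnt16. Leaving out a replicate also lowered the number of genes called over the whole array, from 2328 to between 1374 and 1869 by slope, from 1633 to between 611 and 1315 by the F test and from 1628 to between 704 and 1406 for part 7 against part 1. Calls then numbered 1 to 2 for the co-receptors and 1 to 3 for planar polarity, against 3 and 5. A filter at the 75th percentile, which tests fewer genes, left 3 Frizzled, 5 modulator and 3 planar polarity calls. The slope of Wnt9a, near 0, changed sign with the mean of all probe sets (0.00897) and ranged from -0.0645 to 0.0561 when a replicate was left out, and that of Wnt7a from -0.00294 to 0.0181. Of the other comparisons of a named gene with its alternative, 646 kept direction and side of the threshold and 59 lost the call. With the replicate number as a block, calls rose to 3030 by the F test and 2860 for part 7 against part 1, and to 5 each for the co-receptors and beta-catenin transduction. The block also ended 3 statements that no gene moved one way: Apc fell in beta-catenin transduction (adjusted p = 0.008), Trabd2b (0.0233) and Vps26a (0.0377) rose in ligand handling, and Tek (0.0383) and Cdh5 (0.0418) fell among endothelial markers. With the block Irx3 rose (0.00765), while the gut endoderm markers Krt19 (0.0213) and Sox17 (0.0284) and the blood marker Gata1 (0.0463) fell. Arrays of the same number deviated together in 55 of 63 pairs across parts (correlation above 0.1, lowest 0.0375). Between parts 1 and 7 this held for 1 of 3 pairs. Of 126 pairs of different number, 29 were above 0.1. In all, 20 of 21 arrays were closest to an array of their own number. The pairing is thus a hint from the data and not the design, and is weaker between the ends. Low signal over background limits Wnt10a, Wnt11, the somite end of Wnt3a and the tailbud end of Wnt16.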
